A study of Mus musculus with 6 samples.

Results

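This report describes 10 genes used as markers of large myelinated sensory neurons (Pvalb, Spp1, Ntng1, Cntnap2, Necab2, Calb1, Etv1, Whrn, Esrrg and Cadps2) in mouse dorsal root ganglia after prenatal stress. The members were taken by symbol, and all 10 were found among the 55809 gene symbols and were among the 20146 genes with enough counts to be tested. The samples were 3 control (CT) pools and 3 prenatal stress (PS) pools of ganglia, each from 3 mice per the sample titles. The mice were C57BL6J of 8 weeks. Dams of PS mice were restrained in drilled tubes beneath a bright lamp in late gestation, in 3 sessions of 30 minutes a day, and CT dams were not handled. Both groups came from timed matings of dams aged 8 to 10 weeks. The protocol gives embryonic days 13 to 18 for the stress, and the design text places both days slightly later. The labels name no transgene or deletion in either group. The design text gives 9 mice per group, which fits 3 pools of 3, while the treatment protocol gives 3 mice per group. The labels name neither litter nor sex for a pool, so p-values measure the spread between pools. Males and females were used per the labels. In each pool Ddx3y, a gene on the Y chromosome, was at 77.5 to 81.1 CPM (counts per 1000000 gene counts, after scaling of the libraries), and Xist, made only from an inactive X, had 9 to 19 counts. These levels show male RNA in all 6 pools and no female RNA in quantity in any, although the labels name both sexes.

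Dorsal root ganglia hold the cell bodies of the sensory neurons of trunk and limbs. Proprioceptors, which report muscle stretch and tension, and low-threshold mechanoreceptors, which report touch, have large cell bodies and thick myelinated axons that conduct fast. They fire at high rates, and they carry calcium-buffering proteins, adhesion proteins that cluster potassium channels beside the nodes of the axon, and transcription factors that set the identity of each class. In whole ganglia a marker's level sums over all cells, and fewer cells of a type and less RNA per cell cannot be told apart.

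The libraries held 51.7 to 87.4 M gene counts. Neuronal identity genes were abundant in every pool, with Avil, a sensory neuron actin-binding protein, at 1040 to 1090 CPM and the intermediate filament gene Prph at 1030 to 1080 CPM. Control pool 3 stood apart: the summed level of 16 skeletal muscle markers was 3614 CPM there and 28.5 to 83.7 CPM in the other 5 pools, and 0 of the 16 was at 0 counts in any pool. A list of 15 spinal cord markers summed to 303 CPM in control pool 2, 245 CPM in control pool 3 and 388 CPM in stress pool 2, against 52.5 CPM, 60.3 CPM and 104 CPM in control pool 1, stress pool 1 and stress pool 3. The marker results are therefore given with and without control pool 3.

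None of the 10 markers passed the test of stress against control, and 8 of the 10 had values 1.06 to 1.12 times higher in the stress pools (52.3% of all genes tested had a positive value). The test was edgeR's quasi-likelihood test with Benjamini-Hochberg adjustment over all genes tested and a threshold of 0.05, and 0.129% of all genes tested passed it. At an unadjusted p under 0.05 there were 6 members higher and 0 lower, where 6.01% of all genes tested were higher and 5.11% lower at that p, and 8.31% higher of those with a mean of at least 10 CPM. That count of 6 higher was 1 without stress pool 1 (4.58% of all genes), 2 without control pool 2 (3.54%), with 1 more member lower, and 3 without stress pool 3 (4.82%). It was 5 without control pool 1 and 6 without stress pool 2, and the share of all genes was not computed for these 2 fits. In the 6 members higher with all pools (Etv1, Ntng1, Esrrg, Calb1, Necab2 and Cntnap2) every stress pool stood above every control pool. This order was seen in 9.33% of all genes tested and in 11.5% of the 10370 genes with a mean of at least 10 CPM. The median log2 fold change of the 10 members was 0.11, beside 0.01 over all genes tested. Without control pool 3, 0 of 10 passed (0.0633% of all genes did), 9 of 10 had positive values (52.3% of all genes), the median was 0.11, and 2 members were higher at an unadjusted p under 0.05 (5.03% of all genes). In that set of 5 pools the same 6 members had every stress pool above every control pool (14.1% of all genes).

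**Figure D1:**
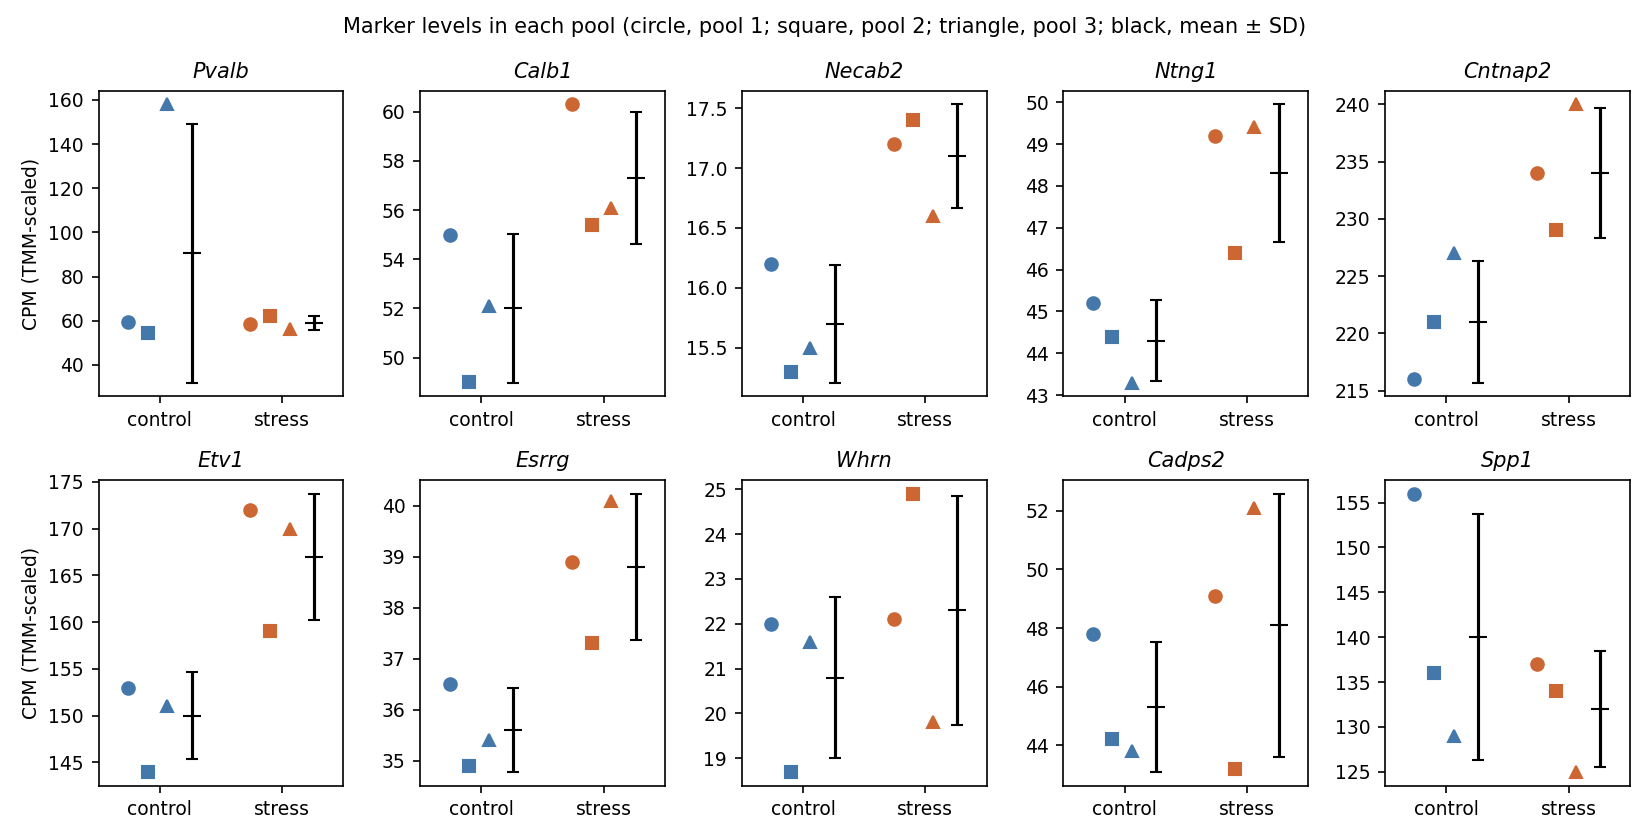
CPM of each of the 10 markers in the 3 control and 3 stress pools, with the mean and SD beside the points and a separate vertical axis, not starting at 0, for each gene. The stress points of Calb1, Necab2, Ntng1, Cntnap2, Etv1 and Esrrg lie above all their control points, and the Pvalb triangle of control pool 3 lies at 158 CPM.

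Pvalb, Calb1 and Necab2 encode calcium-binding proteins of the EF-hand family. Pvalb encodes parvalbumin, a calcium buffer of proprioceptors that is also made in quantity by fast skeletal muscle fibres. It stood at 59.3, 54.3 and 158 CPM in control pools 1 to 3 and at 58.5, 62.2 and 56.2 CPM in stress pools 1 to 3. Only control pool 3 lay far from the rest, 2.72 times above the mean of the other 5 pools, which spanned 54.3 to 62.2 CPM. Its log2 fold change was -0.62 ± 0.38 (SE; edgeR adjusted p = 0.586) with all pools and 0.05 ± 0.06 (adjusted p = 0.831) without control pool 3. The sign of the Pvalb value thus turned when that library was left out. The 95% interval without it, -0.09 to 0.20, includes 0.

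The muscle transcripts shared the Pvalb peak in control pool 3, which is 1 library. In control pools 1 and 2 and stress pools 1 to 3, the muscle markers summed to 28.5, 66.4, 56.0, 83.7 and 74.3 CPM. Pvalb stood at 59.3, 54.3, 58.5, 62.2 and 56.2 CPM in those pools, a different order. Acta1, skeletal muscle actin, stood at 512 CPM in control pool 3 and at 3.19 to 10.7 CPM elsewhere. Myh4, the myosin of the fastest fibres, stood at 711 CPM there and at 2.55 to 8.56 CPM elsewhere. Both thus peaked in the same library as Pvalb. The excess of Pvalb in control pool 3 over the mean of the other pools was 99.9 CPM, or 2.81% of the excess of the 16 muscle markers summed. Among 10128 named genes with a mean of at least 10 CPM, the 3 with the profile most like that of Pvalb over the 6 pools were Ldb3, Flnc and Synpo2, with root-mean-square differences of 0.06, 0.14 and 0.18 on the log2 scale. Ldb3 and Flnc encode proteins of the muscle Z-disc, and Synpo2 an actin-binding protein of muscle. Ldb3 stood at 54.0 CPM in control pool 3 and at 17.2 to 18.6 CPM elsewhere. Synpo2 stood at 20.2 CPM there and at 7.43 to 9.74 CPM elsewhere, so it reached a mean of 10 CPM only through that pool. The Pvalb profile is mainly its peak in that pool, which also held the most muscle transcripts. A search by profile would therefore return muscle genes, and their identity is not separate evidence. The part of muscle RNA in the Pvalb level of control pool 3 was not tested. The 9 other markers did not share this peak: the highest of them in control pool 3, Whrn, was 0.01 above its own mean on the log2 scale, and the lowest, Ntng1, stood at -0.095.

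**Figure D2:**
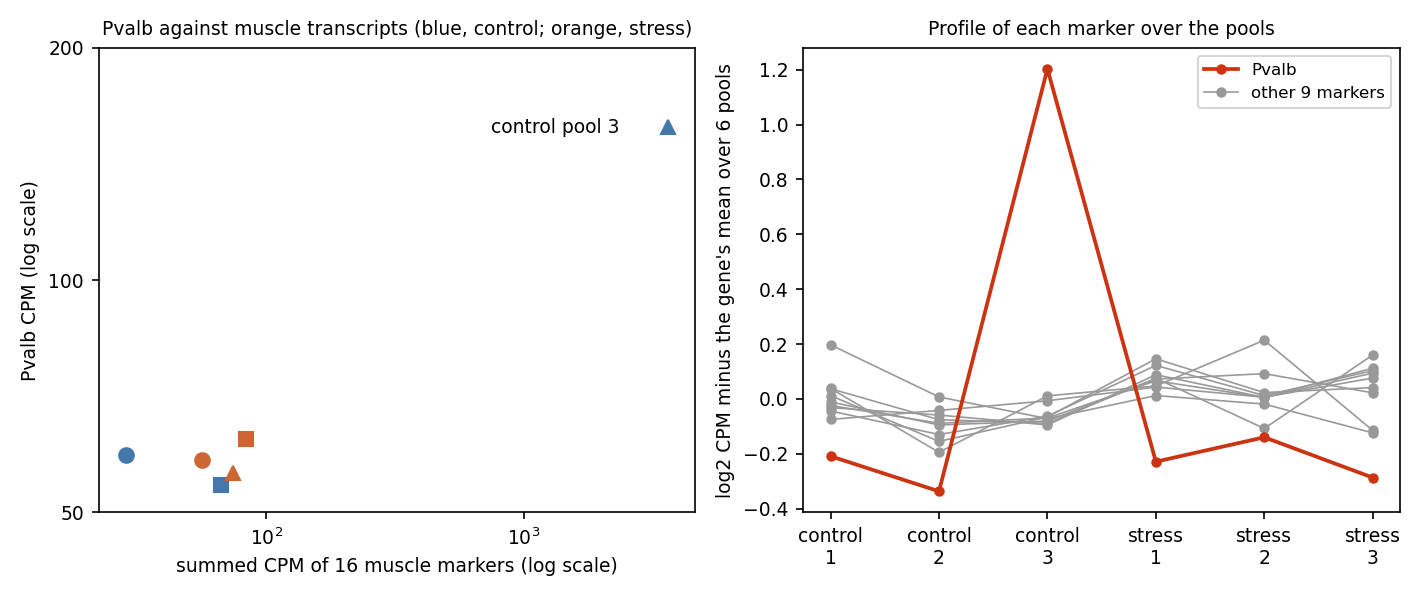
Left, Pvalb CPM against the summed CPM of 16 muscle markers in the 6 pools, both axes logarithmic. Right, each marker's log2 CPM minus its own mean over the 6 pools. Control pool 3 stands alone at 3614 CPM of muscle markers and 158 CPM of Pvalb, and in that pool Pvalb is 1.20 above its mean while the other 9 markers lie between -0.095 and 0.011.

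The sequence before the Pvalb start is shown because Pvalb was the marker that peaked with muscle transcripts. MEF2 factors bind A/T-rich sites beside many muscle and neuronal genes, and the capitals mark matches to the MEF2 motif on either strand. The motif was chosen after the Pvalb values were seen. Each window is the 250 bases before an annotated start, from RefSeq on GRCm38.p6: chr15:78206401-78206650 (minus strand) and chr15:78204238-78204487 (minus strand) for the first and second Pvalb starts, and chr1:187608756-187609005 (plus strand) for the first Esrrg start.
Pvalb, first start: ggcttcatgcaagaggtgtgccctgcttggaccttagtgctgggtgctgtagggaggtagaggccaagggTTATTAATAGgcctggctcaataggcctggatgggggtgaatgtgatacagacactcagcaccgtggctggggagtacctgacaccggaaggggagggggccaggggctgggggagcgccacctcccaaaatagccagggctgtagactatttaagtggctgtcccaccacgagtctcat
Pvalb, second start: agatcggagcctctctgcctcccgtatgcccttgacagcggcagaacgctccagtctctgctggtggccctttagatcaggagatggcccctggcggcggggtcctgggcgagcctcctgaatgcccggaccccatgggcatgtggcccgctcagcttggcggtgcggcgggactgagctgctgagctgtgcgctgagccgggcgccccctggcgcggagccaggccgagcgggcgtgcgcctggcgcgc
Esrrg, first start: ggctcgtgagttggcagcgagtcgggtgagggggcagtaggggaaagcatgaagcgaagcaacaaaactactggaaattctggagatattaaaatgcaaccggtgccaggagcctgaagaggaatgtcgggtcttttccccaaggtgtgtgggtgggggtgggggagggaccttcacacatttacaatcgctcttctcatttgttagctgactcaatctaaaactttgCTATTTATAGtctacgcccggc
The first Pvalb window holds 1 match, beginning 180 bases before the start, and the second window holds 0. The Esrrg window holds 1 match, beginning 22 bases before the start, which overlaps a reverse-strand match to TATAAA, and Esrrg was 35.4 CPM in control pool 3, between the other 2 control pools. These were the 2 windows with the motif among 16 windows of the 9 markers in the RefSeq table, while 2.9% of 32841 windows of the same length hold it. In those 16 windows CANNTG, the E-box, was found on either strand in 9 (66.2% of all windows), TATAAA in 3 (12.4%) and AAGGTCA, a half-site of estrogen-related receptors, in 0 (4.1%). A match describes the letters only.

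Calb1 and Necab2, the other 2 EF-hand genes, differed from Pvalb in that they did not peak in control pool 3. Calb1 encodes calbindin, a calcium buffer. It stood at 55.0, 49.0 and 52.1 CPM in the control pools and at 60.3, 55.4 and 56.1 CPM in the stress pools. The groups did not overlap, but the highest control pool and the lowest stress pool were close. The log2 fold change was 0.14 ± 0.05 (95% interval 0.01 to 0.26; edgeR adjusted p = 0.422). Necab2 encodes a neuronal calcium-binding protein. It stood at 16.2, 15.3 and 15.5 CPM in the control pools and at 17.2, 17.4 and 16.6 CPM in the stress pools. Again all stress pools were higher, by 1.09-fold (log2 fold change 0.12 ± 0.05; interval 0.01 to 0.24; adjusted p = 0.437). Without control pool 3 both values held at 0.14 ± 0.07 and 0.12 ± 0.06, and both intervals then included 0.

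The adhesion genes Ntng1 and Cntnap2 varied little between pools. Ntng1 encodes netrin-G1, a membrane-anchored adhesion protein of axons. It stood at 45.2, 44.4 and 43.3 CPM in the control pools and at 49.2, 46.4 and 49.4 CPM in the stress pools, so that the groups were separate. Its log2 fold change was 0.12 ± 0.04 (interval 0.04 to 0.21; edgeR adjusted p = 0.355). Cntnap2 encodes Caspr2, which holds Kv1 potassium channels beside the nodes of myelinated axons. It stood at 216, 221 and 227 CPM in the control pools and at 234, 229 and 240 CPM in the stress pools. The gap between the groups was narrow, with control pool 3 just under stress pool 2. Its log2 fold change was 0.08 ± 0.03 (interval 0.00 to 0.16; adjusted p = 0.437). The coefficient of variation between pools of a group was 2.18% to 3.42% for these genes, while counting alone would give 1.77% for Ntng1 and 0.796% for Cntnap2. Without control pool 3 the log2 fold changes were 0.11 ± 0.05 and 0.10 ± 0.04. The Ntng1 interval, -0.01 to 0.22, then included 0, and that of Cntnap2 was 0.01 to 0.19.

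Of the transcription factors, Etv1 had the smallest p of all 10 markers. Etv1 is an ETS factor that proprioceptors need to form their connections with motor neurons. It stood at 153, 144 and 151 CPM in the control pools and at 172, 159 and 170 CPM in the stress pools. All 3 stress pools were higher, by 1.12-fold (log2 fold change 0.16 ± 0.04; interval 0.06 to 0.25; edgeR unadjusted p = 0.00587, adjusted p = 0.294). Esrrg encodes an estrogen-related orphan receptor that regulates genes of energy metabolism. It stood at 36.5, 34.9 and 35.4 CPM in the control pools and at 38.9, 37.3 and 40.1 CPM in the stress pools. Its groups were also separate, by a small step (0.12 ± 0.04; interval 0.03 to 0.22; adjusted p = 0.378). Without control pool 3 Etv1 stood at 0.17 ± 0.05 (edgeR adjusted p = 0.522) and Esrrg at 0.12 ± 0.05 (adjusted p = 0.576). The Esrrg interval, -0.01 to 0.24, then included 0, and that of Etv1 was 0.05 to 0.29.

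Whrn and Cadps2 varied more within the groups than between them. Whrn encodes whirlin, a PDZ scaffold protein known from the stereocilia of hair cells. It stood at 22.0, 18.7 and 21.6 CPM in the control pools and at 22.1, 24.9 and 19.8 CPM in the stress pools. The groups overlapped, with the highest and the lowest pool both numbered 2 (log2 fold change 0.10 ± 0.10; interval -0.13 to 0.33; edgeR adjusted p = 0.749). Cadps2 encodes a protein that primes dense-core vesicles for release. It stood at 47.8, 44.2 and 43.8 CPM in the control pools and at 49.1, 43.2 and 52.1 CPM in the stress pools. Stress pool 2 was the lowest of all 6 pools and stress pool 3 the highest (0.09 ± 0.07; interval -0.08 to 0.25; adjusted p = 0.693). Without control pool 3 the values were 0.13 ± 0.11 for Whrn and 0.06 ± 0.08 for Cadps2. Other single pools moved them further: Whrn was 0.01 without stress pool 2, 0.03 without control pool 2 and 0.17 without stress pool 3. Cadps2 was 0.02 without stress pool 3 and 0.16 without stress pool 2.

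Spp1 was the marker besides Pvalb with a negative value. It encodes osteopontin, a secreted matrix phosphoprotein that bone cells and activated macrophages also make. Spp1 stood at 156, 136 and 129 CPM in the control pools and at 137, 134 and 125 CPM in the stress pools. Control pool 1 was high and the other 5 pools overlapped. The log2 fold change was -0.09 ± 0.07 (interval -0.26 to 0.08; edgeR adjusted p = 0.684), -0.15 ± 0.07 without control pool 3 and -0.01 ± 0.05 without control pool 1. The summed level of 12 bone and cartilage markers was highest in control pool 1 as well, at 43.7 CPM there and 30.7 to 36.4 CPM elsewhere. The single genes were mixed. Comp, Alpl, Col2a1, Col9a1 and Mepe were highest in control pool 1, and Ibsp, Bglap, Bglap2, Sp7, Dmp1, Acan and Matn3 in other pools. Ibsp stood at 4.86 CPM in control pool 1 and at 5.93 CPM in control pool 3. The sum of 16 macrophage markers did not peak in control pool 1, with 194 CPM in that pool and 157 to 200 CPM elsewhere. Of the single genes, Gpnmb (12.9 CPM there, 8.5 to 11 CPM elsewhere) and Cd63 (64.2 CPM, 56.5 to 62.2 CPM elsewhere) were highest in control pool 1. The remaining macrophage markers were highest in other pools. The part of bone cells and macrophages in the Spp1 level was not tested.

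**Figure D3:**
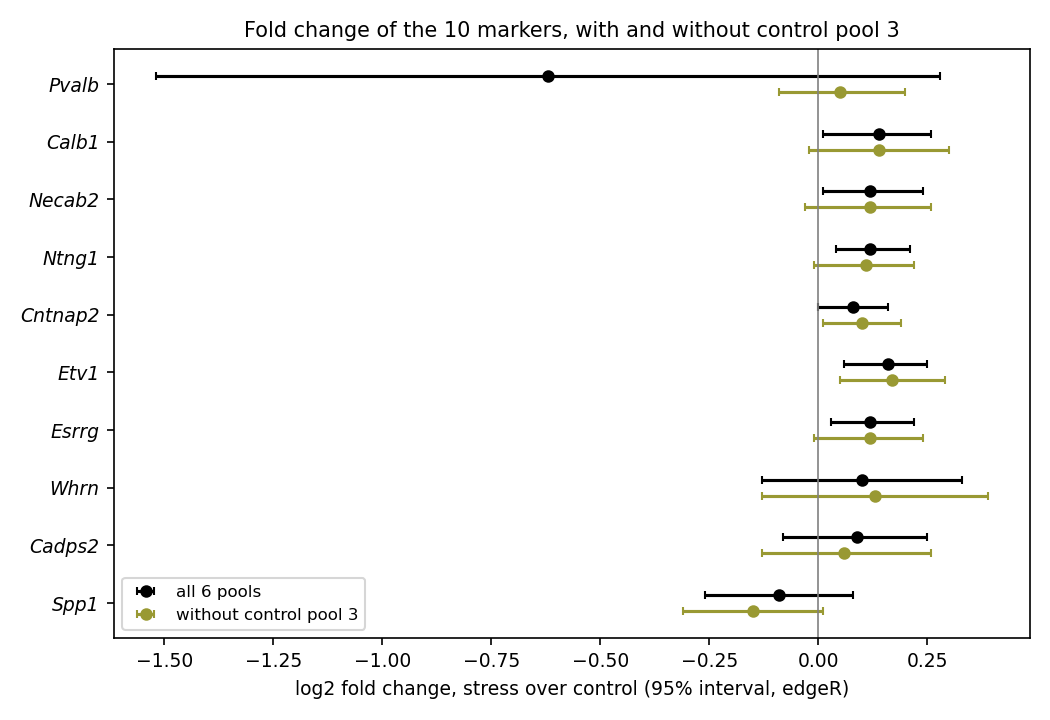
Log2 fold change of stress over control for each marker with its 95% interval from edgeR, with all 6 pools (black) and without control pool 3 (olive). Pvalb moves from -0.62 to 0.05 and its interval narrows, and the other 9 markers keep their sign.

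Per length, Spp1 and Pvalb were the most abundant of the markers. Divided by the length of all annotated exons in GENCODE M21, the level averaged over the 6 pools was 82.5 ± 6.46 CPM per kb (SD) for Spp1 and 71.8 ± 39.2 CPM per kb for Pvalb, and these overlapped because of control pool 3. Cntnap2 followed at 22.2 ± 0.847 CPM per kb, below every pool of Pvalb. Etv1 at 11.9 ± 0.813 CPM per kb and Calb1 at 11.3 ± 0.793 CPM per kb overlapped. Necab2 came next at 7.81 ± 0.417 CPM per kb, apart from its neighbours on both sides. Esrrg (5.99 CPM per kb) overlapped with Ntng1 (5.62 CPM per kb), and Ntng1 with Cadps2 (4.88 CPM per kb). Whrn was lowest at 2.93 ± 0.291 CPM per kb, apart from Cadps2. Exons of Spp1 overlap on the same strand with those of Gm42793, which had 6 to 25 counts per pool. Stretches of Etv1 match Gm5454 (10 to 27 counts), and stretches of Cntnap2 match Gm20672 and Gm20718 (at most 1 count). Against 6430 to 19750 counts per pool for these 3 markers, those are small.

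The level of the markers was also set against the RNA of all neurons. The summed level of 18 genes expressed by all neurons was 12880 to 13110 CPM in the control pools and 12440 to 12770 CPM in the stress pools. Of the 18, 3 (Tubb3, Stmn2 and Gap43) had every stress pool below every control pool and 1 (Syn1) every stress pool above. Among all genes tested 8.76% and 9.33% had these orders. Shares of the sum therefore also depend on how these genes moved. As a share of the summed level, Etv1 was 1.15% ± 0.0451 in control and 1.32% ± 0.0637 in stress pools, and Esrrg was 0.275% ± 0.00779 and 0.307% ± 0.0154 (SD, n = 3 pools each). The same 6 markers had every stress pool above every control pool on this scale, an order seen in 15.5% of all genes tested. Scaled in this way within edgeR, 0 of 10 passed, the median log2 fold change of the 10 was 0.15 and that of all genes was 0.04. Satellite glia sums were lower in every stress pool than in any control pool: 9 markers summed to 3265 to 3619 CPM in control pools and 2913 to 3211 CPM in stress pools. Of these, 0 of 9 were positive (52.3% of all genes tested) and 0 passed. Every stress pool was below every control pool in 4 of the 9 (8.76% of all genes tested). At an unadjusted edgeR p under 0.05, 4 of the 9 were lower (5.11%). The 12 markers of myelinating Schwann cells, which wrap the axons of these neurons, summed to 8031 to 9083 CPM in control pools and to 8674, 9189 and 6972 CPM in stress pools 1 to 3. Stress pool 3, the lowest for Schwann cell genes, had the highest level of 4 of the 10 markers. It was also the lowest pool for Spp1 and next to the lowest for Pvalb and Whrn. The share of all genes that were highest in that pool was not computed. Whether the balance of neurons and glia contributed to the marker levels was not tested.

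A wider list of 34 other genes of myelinated sensory neurons had a smaller median and more mixed values. In all, 0 of the 34 passed (0.129% of all genes tested did) and 23 had positive values (52.3%). Every stress pool was above every control pool in 7 and below in 2 (9.33% and 8.76% of all genes tested). At an unadjusted edgeR p under 0.05, 8 were higher and 1 was lower (6.01% and 5.11%). The median log2 fold change was 0.05, and 0.04 without control pool 3. Mafa, a transcription factor of touch neurons, had the smallest p: it stood at 4.71, 4.59 and 4.72 CPM in the control pools and at 7.14, 6.02 and 6.35 CPM in the stress pools (0.48 ± 0.09; edgeR adjusted p = 0.208). Ntrk3, the neurotrophin-3 receptor of proprioceptors, stood at 288, 294 and 305 CPM and then at 336, 320 and 378 CPM (0.22 ± 0.06; adjusted p = 0.318). Both genes separated the groups without passing over all genes. Cacna1h, a calcium channel of touch neurons, had 0.19 ± 0.06 and the touch channel Piezo2 0.17 ± 0.06. The proprioceptor factor Runx3 stood near level, at 0.07 ± 0.13, and the neurofilament gene Nefh at -0.08 ± 0.06. Of the Kv1 channels held by Caspr2, Kcna2 stood at 451 ± 18.6 and 491 ± 24.6 CPM (0.12 ± 0.05; adjusted p = 0.427) and Kcna1 at 144 ± 29.1 and 185 ± 36.1 CPM (0.36 ± 0.18; adjusted p = 0.497). Lmcd1, listed as a proprioceptor gene, was 6.25 CPM in control pool 3 and 2.4 to 3.02 CPM elsewhere, the same peak as Pvalb.

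Markers of the unmyelinated classes are given from the same fit for scale, with no test of a difference between lists. The median was 0.15 for 7 genes of C low-threshold mechanoreceptors, 0.13 for 11 of nonpeptidergic nociceptors and -0.18 for 10 of peptidergic nociceptors, of which Gal alone passed (edgeR adjusted p = 0.02). The median of the 10 myelinated markers, 0.11, was below those of the first 2 lists and above that of the third.

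**Figure D4:**
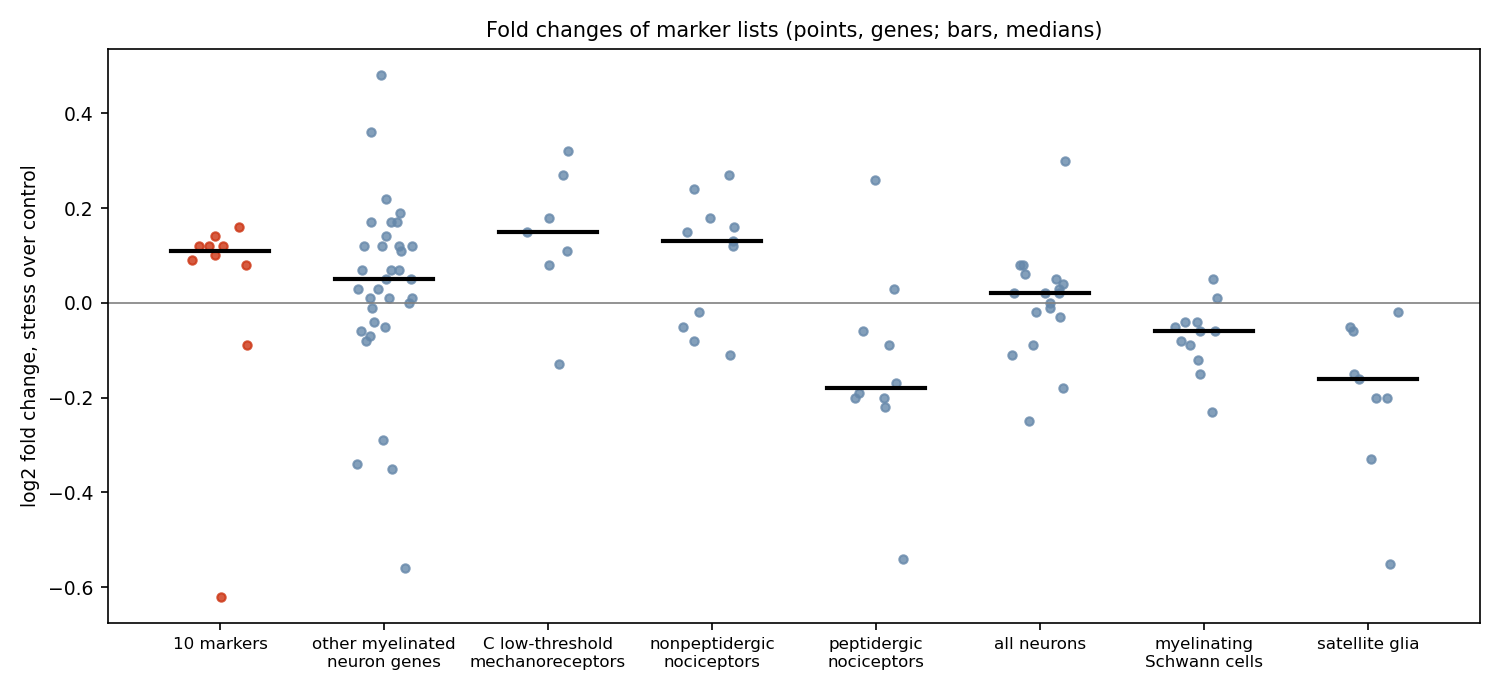
Log2 fold change of stress over control for each gene of 8 lists, with the median of each list as a bar. The 10 markers have a median of 0.11, with Pvalb at -0.62 far below the others, and the peptidergic nociceptor and satellite glia medians lie at -0.18 and -0.16.

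The small shift of the markers was smaller after a joint correction for GC content and transcript length. The median GC content of the longest transcripts was 45.5% for the markers and 49.4% for tested genes of at least 10 CPM, and the median exon length was 6.77 kb against 5.0 kb. With both corrected for in 1 step, the median log2 fold change of the 10 markers was 0.05 in place of 0.11. Cntnap2 went from 0.08 to 0.01 and Necab2 from 0.12 to 0.03, Etv1 stood at 0.11 and Esrrg at 0.09, and 2 markers (Etv1 and Esrrg) in place of 6 were higher at an unadjusted p under 0.05 (5.45% of all genes tested). With the same correction and the replicate number as a block there were 4, Ntng1, Calb1, Etv1 and Esrrg (6.53%), and 0 passed after adjustment in either fit. Among genes of at least 10 CPM, the median log2 fold change was 0.017 for the 2546 of lowest GC content (31% to 44.6%) and -0.003 for the 2538 of highest (54.3% to 69.2%), and the parts of GC content and length were not tested separately. All 8 positive values stayed positive.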

How the data were processed

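Polyadenylated RNA from whole ganglia was sequenced as stranded paired-end libraries, per the labels' protocols. The authors deposited raw counts of reads per gene symbol, 1 table per pool. Per the submitters' processing notes, the tools were FastQC, STAR 2.4 and HTSeq 0.9.1, and both GRCm39 and mm10 appear as builds; which of these served for the counts, and the strand setting, is not given in the sources used here. Reads assigned to no gene (15.3% to 16.2% per library) were left out. The test of the counts was that of edgeR 4.0.16, run in R 4.3.3 (TMM factors, filterByExpr with a minimum count of 10, quasi-likelihood test of PS against CT); levels are CPM with those factors, and SE is the log2 fold change over the square root of F. The fit was tested on simulated data. Every pair of libraries differed by more than counting error (chi-square per degree of freedom 10.98 to 36.41), and each pool counted as 1 replicate. Alternatives were DESeq2 1.42.0, other scalings, no filter, GC and length correction (loess on GENCODE M21; 95.2% of tested genes had values), a replicate block, and each pool left out. Copies were sought with minimap2 2.31-r1302 (at least 90% identity over 200 bases).

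The labels number pools 1 to 3 in both groups. Each pool's deviations from its group mean, over all tested genes, correlated with those of the pool of the same number at 0.34, 0.22 and 0.14. Pools of unlike number correlated at -0.3 to 0.12. The main fit did not pair the pools, and the number served as a block in alternative fits only. Members and lists were chosen with earlier results of these data known. Genes named besides the 10 members had the smallest p in their list, passed the test or were most like Pvalb in profile. Acta1, Myh4, Runx3, Nefh, Kcna1, Kcna2, Lmcd1, Gpnmb, Cd63, the bone and cartilage genes and the identity genes were named after their values were seen.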

Additional observations from a re-analysis of the deposited data

How the results depend on the processing

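Of the 10 markers, 0 passed under any of the 16 alternatives (edgeR or DESeq2, Benjamini-Hochberg adjusted). At an unadjusted p under 0.05 there were 6 markers in the main edgeR fit, where 6.01% of all genes tested were higher and 5.11% lower. There were 4 with DESeq2 and 4 with the replicate block in edgeR, for which the share of all genes was not computed. The lowest adjusted p of any marker was 0.0697, for Etv1 with DESeq2. The median of the 10 markers moved from 0.111 to 0.048 with the GC content and length correction and to 0.046 with that correction and the replicate block; the cause was not tested. With the replicate block alone the median was 0.109 and 0 markers passed. Over all genes 22 passed with the block, 18 of them among the 26 of the main fit. Leaving out 1 pool at a time gave medians of 0.084 to 0.14. Pvalb turned from -0.62 to 0.054 without control pool 3, and ranged from -0.888 to 0.054 over the pools left out in turn. Whrn turned from 0.1 to -0.056 without control pool 2 and stress pool 2, an alternative chosen after seeing the data because these pools had the most spinal cord transcripts of their groups; the median was then 0.11. Over all genes, 26 passed in edgeR, 295 with DESeq2, 49 without the low-count filter, 2 to 14 with 1 pool left out and 1 without both pools numbered 2. The markers had 857 to 19750 counts per pool, for which counting alone gives a coefficient of variation of 0.796% to 2.97%.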
